A study of Mus musculus with 8 samples.

Results

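The neural subunit switch of the BAF complex was followed in the P1 mouse cortex through 8 genes, chosen by name among the 48709 genes listed in each library. BAF is the ATP-dependent SWI/SNF chromatin remodeler of mammals. It keeps a core of shared subunits, and at several positions it holds either a subunit of dividing progenitors or its neuronal homolog. When newborn cortical neurons leave the cell cycle, *Actl6a* (BAF53a) gives way to *Actl6b* (BAF53b), *Phf10* (BAF45a) and *Dpf2* (BAF45d) give way to *Dpf1* (BAF45b) and *Dpf3* (BAF45c), and *Ss18* gives way to *Ss18l1* (CREST). In neurons, miR-9-3p and miR-124 are known to repress *Actl6a*, while the repressor REST holds these miRNAs off in dividing cells. *Dpf2* is also known to be made in many cells that do not divide, so that its name as a progenitor subunit is a convention.

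RNA of whole P1 cortex was compared between 4 control and 4 dcKO_Nex-Cre samples of the C57BL6/J background. In the dcKO_Nex-Cre mice, floxed *Smarcc1* (BAF155) and *Smarcc2* (BAF170), which code for core scaffold subunits, were removed by Nex-Cre, active in postmitotic projection neurons. The methods describe the control mice as heterozygous for both floxed alleles and free of Cre, so that the Cre allele was in 1 group alone. Progenitors, interneurons, glia and vessels of the tissue are outside Nex-Cre and keep both genes, and in bulk RNA fewer cells of a type and less RNA per cell cannot be told apart. The labels name the samples by group and number, without saying which came from separate animals, and the p-values therefore measure the spread between samples, which may be technical.

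The libraries held 17958641 to 35191912 counts and 2.33% to 6.87% mitochondrial counts, highest in control replicate 2 (6.87%) and dcKO_Nex-Cre replicate 4 (6.15%). All controls and dcKO_Nex-Cre replicates 1 and 2 carry lane tag 2 in the deposited names, and dcKO_Nex-Cre replicates 3 and 4 carry tag 8, a lane with no control. Projection neuron markers were abundant in every library, with summed levels of 1826 to 2096 CPM in the control and 1504 to 1830 CPM in the dcKO_Nex-Cre cortex, which fits the cortical label. Within the mean sums of 1933 and 1656 CPM, *Neurod6* alone held 645 and 387 CPM. This gene is also named Nex, as in the Cre line that only the dcKO_Nex-Cre mice carry. Of the 12 markers, 5 had a log2 fold change above 0. CPM are read counts scaled to a fixed library size. The floxed genes were lower in the dcKO_Nex-Cre cortex: *Smarcc2* fell by 0.81 on the log2 scale (SE 0.09, edgeR adjusted p = 0.00267) and *Smarcc1* fell by 0.53 (SE 0.10, edgeR adjusted p = 0.0348). For *Smarcc1* the adjusted p passed 0.05 in 2 of 8 fits, each with 1 library omitted.

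One step of the switch can be read in sequence. The miRNA miR-9-3p, also written miR-9*, is shown because its seed pairs with a site in the 3′ UTR of *Actl6a*. Bases 2 to 8 of the miRNA, the seed, are in capitals in the first line, and the letters that pair with them are in capitals in the second.

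miR-9-3p: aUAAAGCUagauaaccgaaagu

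*Actl6a* 3′ UTR: ctcaacgtctgtAGCTTTAgtacactc

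The miRNA sequence is that of RefSeq on GRCm38.p6, where the same mature form is read from Mir9-1 on chromosome 3, Mir9-2 on chromosome 13 and Mir9-3 on chromosome 7. The site is chr3:32726640-32726646 of GRCm38, on the plus strand, and starts at base 38 of the 371 bases of the annotated UTR. Of the 8 switch genes, *Actl6a* alone held AGCTTTA in the 3′ UTR of the transcript searched, on the strand of the RNA. The 3′ UTRs of all protein coding genes hold it in 11.3% of 21020, and those within 20% of the length of the *Actl6a* UTR in 2.39% of 1797. A match of letters is a description and does not show that the site is used. The mature sequence of miR-124 is not shown.

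All 8 genes had enough counts to be tested in each group, and none differed between the groups at an adjusted p under 0.05 (edgeR). Over all 16287 genes tested, 0.884% passed this threshold. At an unadjusted p under 0.05 from edgeR there were 2 of the 8, *Ss18* (higher) and *Dpf3* (lower), against 13.6% of all genes (6.59% higher and 7.05% lower). The Wald test of DESeq2, which called 3.16% of its tested genes, gave no adjusted p under 0.05 among the 8 either. The levels of *Ss18* and *Dpf2* did not overlap between the groups, both with the dcKO_Nex-Cre libraries above, against 8% of all genes without overlap in either direction and 3.99% higher. With the adjusted p as the measure, the RNA of neither the progenitor nor the neuronal side of the switch was detectably changed at P1. The interval given with each gene shows the precision of its value. Protein was not measured here, so that the makeup of the complex cannot be read from these values. By immunostaining, the paper reported depleted core BAF subunit proteins in the P1 dcKO_Nex-Cre cortex, with some residue.

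**Figure D1:**
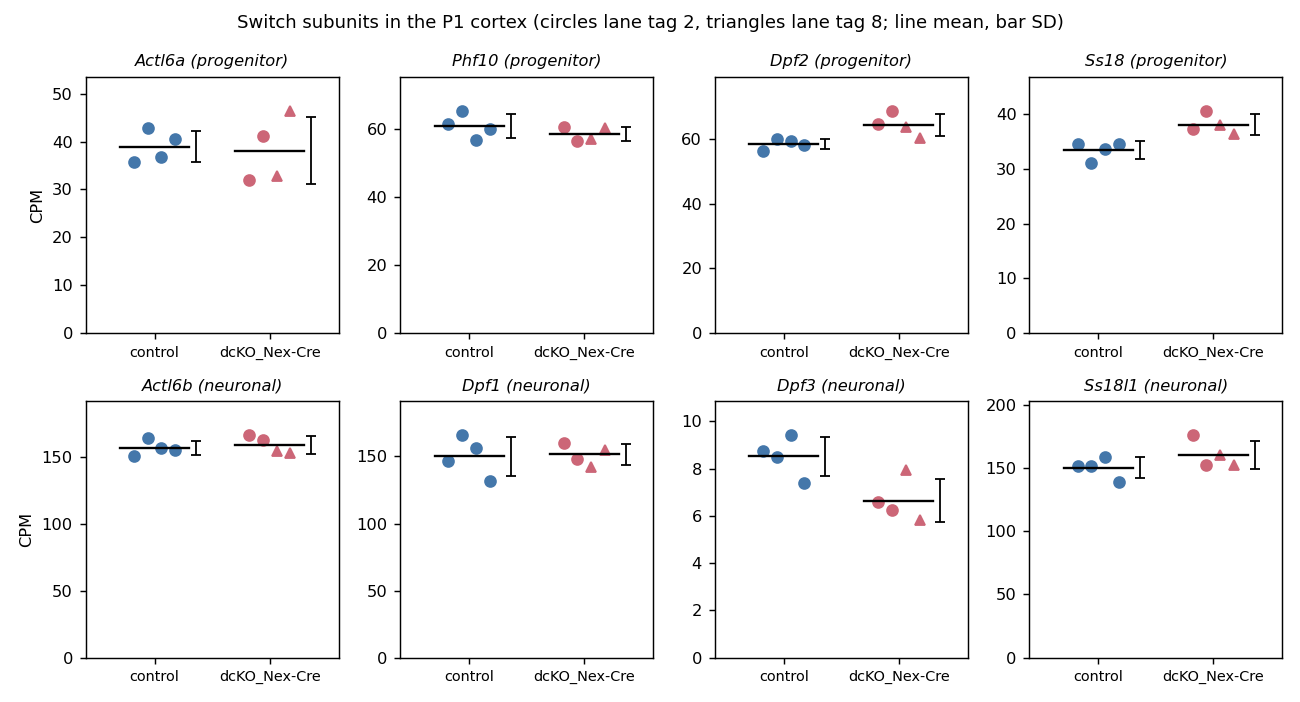
Levels of the 8 switch genes by library, in CPM on linear axes that start at 0; each point is a library (circles lane tag 2, triangles lane tag 8), the line is the group mean and the bar the SD (n = 4 per group). *Ss18* and *Dpf2* were without overlap between the groups, and the other 6 genes overlapped.

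*Actl6a* (chromosome 3, 32706298 to 32726973, plus strand, GRCm38) codes for the actin-related subunit of the progenitor complex and is needed for progenitors to divide. In the control, *Actl6a* was at 35.8, 42.8, 36.7 and 40.4 CPM in replicates 1 to 4, and in the dcKO_Nex-Cre cortex at 31.9, 41.1, 32.9 and 46.5 CPM. The dcKO_Nex-Cre libraries thus spread to both sides of the controls, and their SD of 6.94 CPM was larger than the 3.25 CPM of the control (n = 4 each). The log2 fold change was -0.03 (SE 0.12, 95% interval -0.30 to 0.24), with an edgeR adjusted p of 0.927. Control replicate 2 and dcKO_Nex-Cre replicate 4, the libraries with the most mitochondrial counts, held the highest *Actl6a* level of their group. Without both, the log2 fold change was -0.09 (edgeR adjusted p = 0.593), and without dcKO_Nex-Cre replicate 4 alone it was -0.14 (edgeR adjusted p = 0.408). The part of library quality in this spread was not tested.

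*Actl6b* (chromosome 5, 137553517 to 137569582, plus strand) codes for the homolog that takes the place of *Actl6a* in neurons, where it is known to be needed for dendrite growth. It was at 151, 165, 157 and 155 CPM in the control and at 167, 163, 155 and 153 CPM in the dcKO_Nex-Cre cortex. The groups overlapped throughout, with means of 157 ± 5.57 and 159 ± 6.61 CPM (SD, n = 4). The log2 fold change was 0.02 (SE 0.07, edgeR adjusted p = 0.906), and its 95% interval of -0.12 to 0.17 was the narrowest of the neuronal subunits.

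The PHD finger subunits of the BAF45 position bind histone tails. *Phf10* (chromosome 17, 14945009 to 14961273, minus strand), the BAF45a subunit of neural progenitors, was at 61.4, 65.4, 56.8 and 59.9 CPM in the control and at 60.6, 56.5, 56.9 and 60.1 CPM in the dcKO_Nex-Cre cortex. These values overlapped, with a log2 fold change of -0.06 (SE 0.07, 95% interval -0.21 to 0.10, edgeR adjusted p = 0.746). *Dpf2* (chromosome 19, 5896516 to 5913010, minus strand) was at 56.3, 59.99, 59.2 and 58.1 CPM in the control and at 64.4, 68.7, 63.7 and 60.3 CPM in the dcKO_Nex-Cre cortex. Each dcKO_Nex-Cre value lay above the controls, the lowest by a margin of less than 1 SD of either group. The mean went from 58.4 ± 1.61 to 64.3 ± 3.45 CPM (SD, n = 4), or 110% of the control. Its log2 fold change was 0.14 (SE 0.07, 95% interval -0.01 to 0.29), with an adjusted p of 0.398 from edgeR and p = 0.0286 from the two-sided exact permutation test of the CPM, the smallest p that 4 against 4 libraries can give.

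*Dpf1* (chromosome 7, 29303951 to 29318243, plus strand), the BAF45b subunit of neurons, was at 147, 166, 156 and 132 CPM in the control and at 160, 148, 142 and 155 CPM in the dcKO_Nex-Cre cortex. Every dcKO_Nex-Cre value fell inside the control range, and the log2 fold change was 0.01 (SE 0.08, 95% interval -0.17 to 0.20, edgeR adjusted p = 0.961). *Dpf3* (chromosome 12, 83213745 to 83487716, minus strand), the BAF45c subunit, is also known from heart and muscle. It had the lowest level of the 8, at 8.75, 8.48, 9.43 and 7.40 CPM in the control and 6.58, 6.25, 7.92 and 5.84 CPM in the dcKO_Nex-Cre cortex. Control replicate 4 and dcKO_Nex-Cre replicate 3 made the groups overlap, while the other 3 dcKO_Nex-Cre libraries lay below every control. The mean went from 8.52 ± 0.84 to 6.65 ± 0.90 CPM (SD, n = 4), or 78.1% of the control. *Dpf3* had the largest fitted fold change of the 8, at -0.36 on the log2 scale (SE 0.14, 95% interval -0.65 to -0.06), with an edgeR adjusted p of 0.284 and p = 0.0571 from the two-sided exact permutation test.

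*Ss18* codes for the small subunit of progenitor BAF that *Ss18l1*, or CREST, a calcium-responsive activator of dendrite genes, replaces in neurons. Control libraries held *Ss18* at 34.4, 31.0, 33.7 and 34.5 CPM, and dcKO_Nex-Cre libraries at 37.3, 40.6, 38.0 and 36.3 CPM. All 4 dcKO_Nex-Cre values were above the controls, with means of 33.4 ± 1.65 and 38.1 ± 1.86 CPM (SD, n = 4), or 114% of the control. Its log2 fold change of 0.19 (SE 0.07, 95% interval 0.02 to 0.35) had an unadjusted p of 0.0276 and an adjusted p of 0.298 from edgeR. The two-sided exact permutation test gave p = 0.0286, its smallest possible value. Any gene without overlap between the groups gets this value, so that it restates the lack of overlap. *Ss18l1* (chromosome 2, 180042509 to 180070201, plus strand) was at 151, 152, 159 and 139 CPM in the control and at 176, 152, 160 and 152 CPM in the dcKO_Nex-Cre cortex. dcKO_Nex-Cre replicate 1 was the highest library, replicate 3 was just above the highest control and the other two lay among the controls, with a log2 fold change of 0.09 (SE 0.08, 95% interval -0.07 to 0.26, edgeR adjusted p = 0.597).

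**Figure D2:**
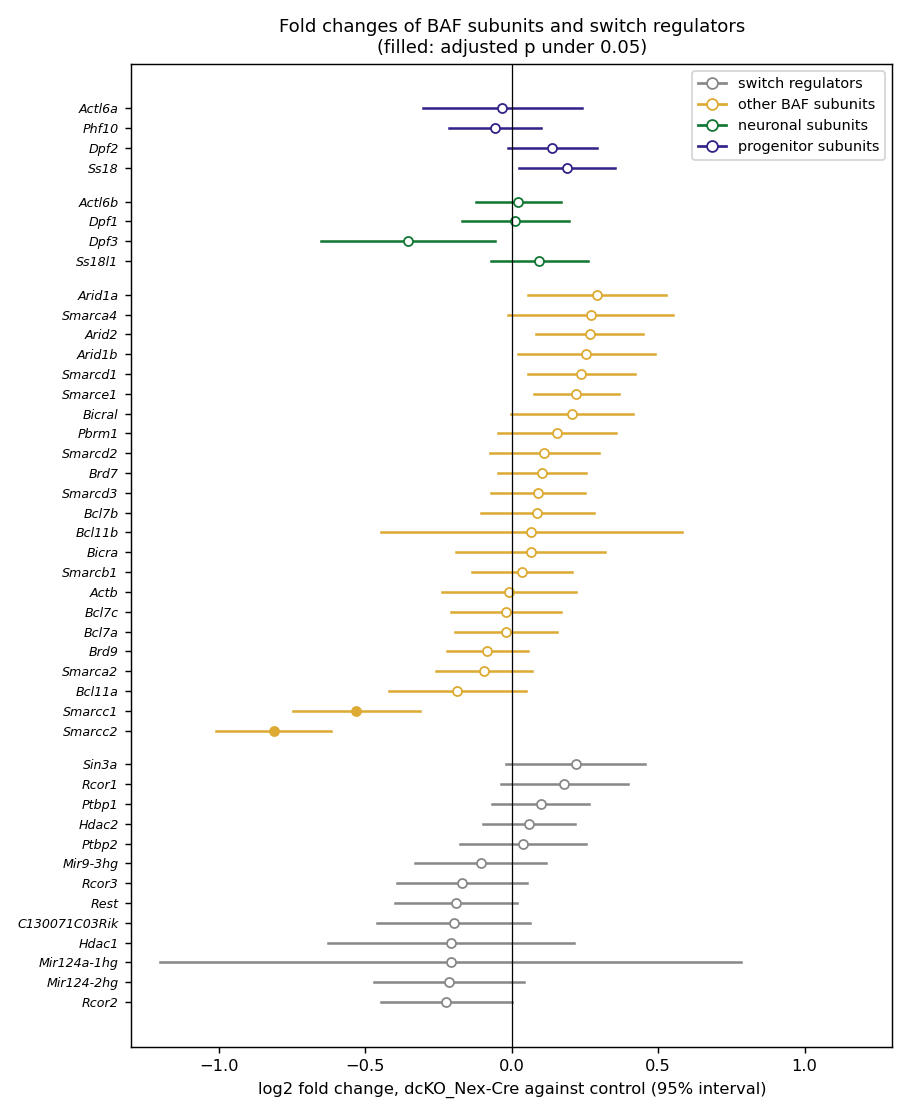
Log2 fold change of each gene in the dcKO_Nex-Cre against the control cortex, on a linear axis, with the 95% interval from edgeR (n = 4 per group), for the progenitor and neuronal subunits, the other BAF subunits and the switch regulators. Filled points mark an adjusted p under 0.05, which were *Smarcc1* and *Smarcc2* alone.

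The order of the 8 genes was set by their levels per length. Per kilobase of annotated exon, the control means were 36.8 CPM for *Actl6b*, 34.6 for *Ss18l1* and 28.0 for *Dpf1*, followed by 12.4 for *Phf10*, 10.02 for *Actl6a* and 8.98 for *Dpf2*, and then 3.55 for *Ss18* and 2.02 for *Dpf3* (n = 4). Thus 3 of the 4 neuronal subunits stood above all 4 progenitor subunits, and the fourth, *Dpf3*, below them. Of the 7 neighbouring pairs in this order, *Actl6b* with *Ss18l1* and *Actl6a* with *Dpf2* overlapped between libraries, and the other 5 did not. In the dcKO_Nex-Cre cortex *Dpf2* and *Actl6a* changed places, at 9.89 and 9.81 CPM per kilobase, with overlapping values, and no other place in the order changed. With the longest protein coding transcript as the length, *Actl6b* stood alone at the top with 98.5 CPM per kilobase in the control, *Dpf1* came next with 65.1, and *Phf10* (36.6) overlapped *Ss18l1* (34.6). *Dpf3* was last with either length.

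**Figure D3:**
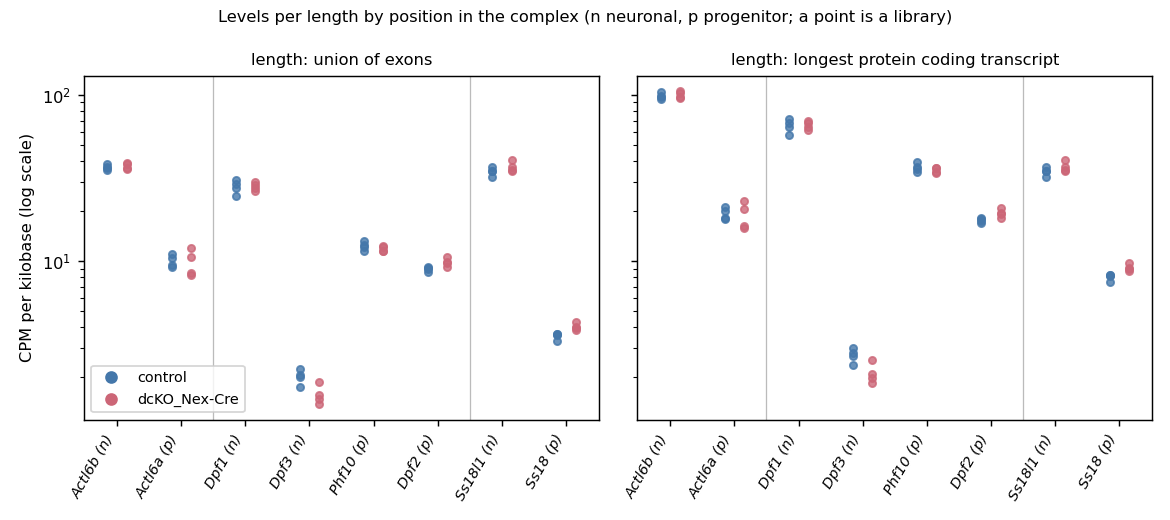
Levels of the 8 genes in CPM per kilobase on a log axis, with each library as a point, by the length of all annotated exons (left) and of the longest protein coding transcript (right). In both panels *Actl6b* lay above *Actl6a*, *Dpf1* above *Phf10* and *Dpf2*, and *Ss18l1* above *Ss18*, while *Dpf3* lay below all.

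Within a library, the ratio of the neuronal to the progenitor subunit at the same position does not depend on the library's depth. Per kilobase of exon, *Actl6b* to *Actl6a* was at a log2 ratio of 1.94, 1.81, 1.96 and 1.81 in the control and of 2.25, 1.85, 2.10 and 1.58 in the dcKO_Nex-Cre cortex. Both the highest and the lowest ratio were thus in the dcKO_Nex-Cre cortex, and the mean log2 ratio differed by 0.066, less than the SD of either group. The log2 ratio of *Ss18l1* to *Ss18* was 3.29 ± 0.12 in control libraries and 3.19 ± 0.13 in dcKO_Nex-Cre libraries (SD, n = 4), with overlap. For *Dpf1* plus *Dpf3* to *Phf10* plus *Dpf2* the log2 ratio was 0.48 ± 0.12 in control libraries and 0.45 ± 0.05 in dcKO_Nex-Cre libraries (SD, n = 4). With all 4 neuronal over all 4 progenitor subunits, the log2 ratio was 1.54 ± 0.08 and 1.55 ± 0.11 (SD, n = 4). These ratios describe the exchange and were not tested, since the genes were chosen together. Their size depended on the length used: the control mean of *Ss18l1* to *Ss18* was 2.10 with the longest protein coding transcript. That of *Actl6b* to *Actl6a* was 2.35 with this length and 1.39 with the longest annotated transcript, against 1.88 with all exons. With all libraries, the groups differed by less than the SD of the control for each of the 4 ratios. The difference of *Actl6b* to *Actl6a*, as dcKO_Nex-Cre minus control on the log2 scale, depended on single libraries: it was 0.186 without dcKO_Nex-Cre replicate 4, 0.171 within lane tag 2 and 0.163 without the 2 libraries of highest mitochondrial share, all above the control SD of 0.083, and -0.035 without dcKO_Nex-Cre replicate 1. That of *Ss18l1* to *Ss18* was -0.151 without dcKO_Nex-Cre replicate 1, beyond the control SD, and -0.041 without dcKO_Nex-Cre replicate 2.

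**Figure D4:**
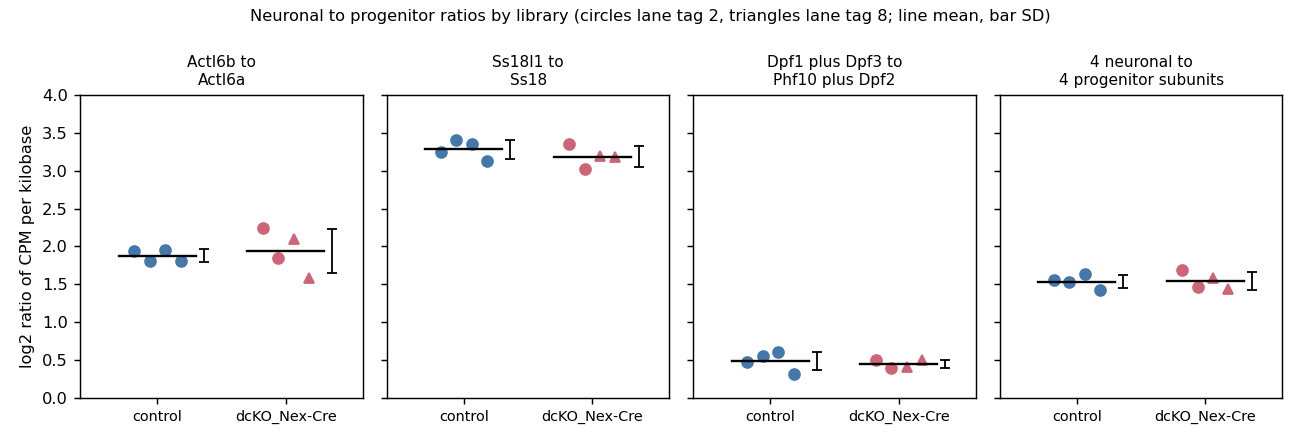
Log2 ratio of neuronal to progenitor subunits in each library, from CPM per kilobase of exon; circles are lane tag 2, triangles lane tag 8, the line is the mean and the bar the SD (n = 4 per group). In each panel the dcKO_Nex-Cre libraries overlapped the controls.

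Of the 23 other BAF subunits tested, *Smarcc1* and *Smarcc2* were downregulated and none was upregulated, against 0.51% and 0.375% of all genes. The remaining 21 subunits had a median log2 fold change of 0.09, beside 0.00 for all genes, with 15 above 0 and 6 below. Of these 21, 3 did not overlap between the groups, all higher in the dcKO_Nex-Cre cortex, against 3.99% of all genes in that direction. They were *Smarce1* (BAF57), at a log2 fold change of 0.22 (edgeR adjusted p = 0.177), *Arid2* (BAF200), at 0.27 (0.197), and *Smarcd1* (BAF60a), at 0.24 (0.249), named here after their values were seen. Shifts of *Ss18* and *Dpf2*, at 0.19 and 0.14, lay above the median of these 21 subunits and below the 3 named values. Whether they differ from the shifts of subunits that take no part in the switch was not tested. All these values are of RNA, while the loss of core subunits that the paper reported is of protein.

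Several of these subunits had their lowest dcKO_Nex-Cre level in replicate 4. *Smarca4* (BRG1), an ATPase of the complex, was at 331, 308, 354 and 301 CPM in the control and at 473, 400, 394 and 293 CPM in the dcKO_Nex-Cre cortex, so that replicate 4 alone lay below the controls. Without replicate 4, *Arid1a*, *Arid1b*, *Arid2*, *Smarca4* and *Smarcd1* were upregulated, by log2 fold changes of 0.30 to 0.39 (edgeR adjusted p 0.0171 to 0.0493), a fit in which 3.98% of all genes were upregulated. The 8 switch genes again had no adjusted p under 0.05 in that fit, which called 7.73% of all genes in either direction, and where *Ss18* came to 0.21 (edgeR adjusted p = 0.0880) and *Dpf2* to 0.17 (edgeR adjusted p = 0.118). *Arid1b* also passed within lane tag 2, at 0.41 (edgeR adjusted p = 0.0425), where 0.834% of all genes were upregulated.

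The known regulators of the switch are REST with its corepressors, the host transcripts of miR-9 and miR-124, and the splicing repressors *Ptbp1* and *Ptbp2*. None of the 13 tested passed the adjusted threshold, 5 were above 0, and their median log2 fold change was -0.17. *Rcor2*, a CoREST corepressor, had the smallest unadjusted p, with a log2 fold change of -0.22 (edgeR unadjusted p = 0.0499, adjusted p = 0.366). *Sin3a*, the scaffold of a histone deacetylase complex, was at 0.22 (edgeR adjusted p = 0.397). *Rest* itself was at 15.4, 14.5, 14.1 and 14.6 CPM in the control and at 13.6, 13.4, 12.9 and 11.5 CPM in the dcKO_Nex-Cre cortex. Its libraries did not overlap, with the dcKO_Nex-Cre cortex lower, as in 4.01% of all genes, and its log2 fold change of -0.19 (SE 0.09) had an edgeR adjusted p of 0.400.

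The mature miRNAs are too short for this kind of library, and the long transcripts that carry them were read in their place. *C130071C03Rik*, which overlaps Mir9-2, was at 403, 462, 440 and 382 CPM in the control and at 319, 341, 348 and 463 CPM in the dcKO_Nex-Cre cortex. *Mir124-2hg* was at 91.6, 107, 85.9 and 101 CPM in the control and at 80.7, 73.6, 74.3 and 104 CPM in the dcKO_Nex-Cre cortex. For both transcripts dcKO_Nex-Cre replicates 1 to 3 lay below all controls, and replicate 4 was among the highest controls or above them. With all libraries, their log2 fold changes were -0.20 and -0.22 (edgeR adjusted p = 0.482 and 0.437). Without dcKO_Nex-Cre replicate 4 both were downregulated, at -0.33 (edgeR adjusted p = 0.0432) and -0.33 (edgeR adjusted p = 0.0368), where 3.74% of all genes were. In the same fit 2 other regulators were upregulated, *Sin3a* at 0.32 (edgeR adjusted p = 0.0312) and *Rcor1*, a CoREST corepressor, at 0.27 (edgeR adjusted p = 0.0434), so that the 4 calls went both ways. *Actl6a*, the gene with the miR-9-3p site printed above, had its highest level of all libraries in the same replicate 4, which also held the highest *Mir9-3hg* (77.5 CPM) and *Mir124a-1hg* (167 CPM). These 2 host transcripts are named after their values were seen.

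Markers of the cells on both sides of the switch were read beside the 8 genes. Of 14 genes of cycling cells none passed the test, 12 were above 0 with a median log2 fold change of 0.16, and their summed level was 351 to 412 CPM in the control and 347 to 528 CPM in the dcKO_Nex-Cre cortex. *Mki67*, a nuclear protein of dividing cells, had the smallest p of these, with a log2 fold change of 0.39 (edgeR adjusted p = 0.399). The 11 radial glia genes summed to 3091 to 3794 and 2823 to 3500 CPM, without a called gene, with 5 above 0 and a median of -0.01. *Fabp7*, a fatty acid binding protein of radial glia, was at -0.50 (edgeR adjusted p = 0.113). It weighed heavily in the sum, at means of 1584 CPM in the control and 1123 CPM in the dcKO_Nex-Cre cortex, beside mean sums of 3498 and 3087 CPM. Of 7 intermediate progenitor genes 6 were tested (*Neurog1* had 0 to 3 counts per library), all 6 were above 0, none passed, and *Btg2* was at 0.21 (edgeR adjusted p = 0.487). Postmitotic neuron genes summed to 10400 to 11620 and 10050 to 12140 CPM, again with none of 14 called, 7 above 0 and a median of -0.002. Of these, *Snap25*, a synaptic SNARE protein, had the smallest p, at -0.34 (edgeR adjusted p = 0.0635). In this list 2 genes were without overlap and lower and 1 was higher, against 4.01% and 3.99% of all genes. *Stmn2*, *Tubb3*, *Map2* and *Dcx* weighed most in the sum, at control means of 2243, 2210, 1989 and 1692 CPM beside 11220 CPM. The summed levels of progenitors and of neurons overlapped between the groups, as did the 2 sides of the switch, at 186 to 199 and 191 to 207 CPM for the progenitor subunits and 433 to 491 and 465 to 510 CPM for the neuronal subunits. Whether the makeup of the tissue had a part in the small shifts of *Ss18*, *Dpf2* and *Dpf3* was not tested.

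In the other 10 marker lists 4 of 77 genes passed, or 5.19%, against 0.884% of all genes. *Neurod6*, whose other name Nex gave the Cre line its name, was downregulated at a log2 fold change of -0.74 (edgeR adjusted p = 0.0192). It is 1 of the 4 genes counted. The Cre allele was in the dcKO_Nex-Cre group alone, and its part in the lower *Neurod6* was not tested. This value is therefore not read as a change of projection neurons. Upregulated were *Cspg4* of oligodendrocyte precursors at 0.56 (0.0355), *C1qb* of microglia at 0.46 (0.0422), and *Ppp1r1b* of striatal neurons at 0.96 (0.0400). The genes with the smallest p of the remaining lists did not pass: *Sst* of interneurons at -0.84 (0.0645), *Foxc1* of meninges at 0.74 (0.253), *Gfap* of astrocytes at 0.34 (0.256), *Aqp1* of choroid plexus at -2.29 (0.381), *Flt1* of endothelium at 0.32 (0.427) and *Alas2* of erythroid cells at 0.38 (0.446). *C1qb* and *Gfap* do not stand for their lists, as 5 of 8 microglia and 4 of 7 astrocyte genes were above 0. *P2ry12* of microglia was at -0.57 (0.0596, named after its value was seen). Also mixed were projection neurons (5 of 12 above 0), interneurons (4 of 12), striatum (6 of 8) and meninges (5 of 7). All 6 oligodendrocyte precursor, all 7 endothelial and all 5 erythroid genes were above 0, and 0 of 5 tested choroid plexus genes were. Choroid plexus genes summed to 23.6 to 1351 CPM in the control and 4.49 to 561 CPM in the dcKO_Nex-Cre cortex, with a wide spread inside both groups.

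The genes whose levels followed *Actl6a* most closely over the 8 libraries, by the root mean square difference of centred log2 CPM, were *Dhdh* (0.042), *Rtel1* (0.048) and *Slc50a1* (0.059), beside a spread of 0.18 of *Actl6a* itself. For *Actl6b* they were *Celf1* (0.025), *Spg7* (0.031) and *Pold3* (0.031), beside a spread of 0.049. So small a spread of *Actl6b* lets many flat genes come close to it, and the names describe likeness over these libraries only.

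**Figure D5:**
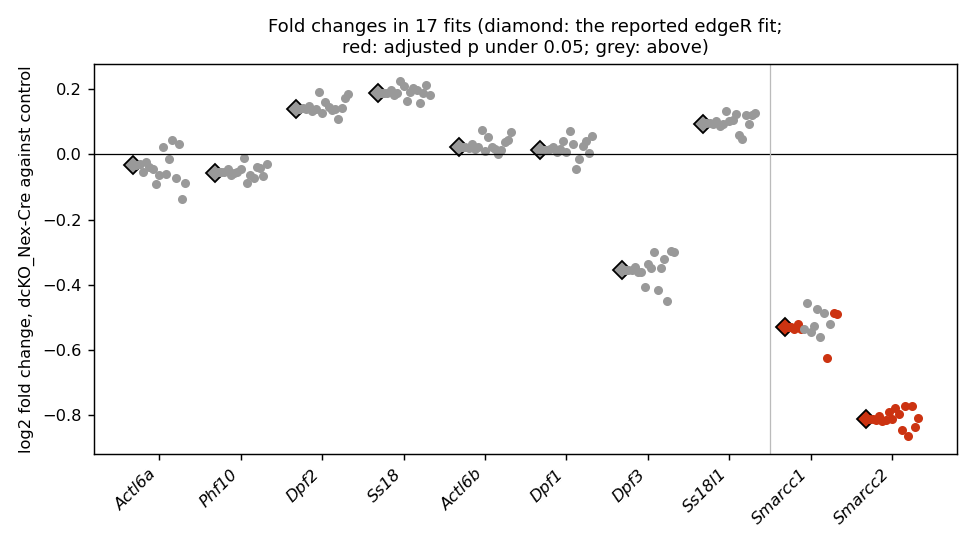
Log2 fold changes of the 8 switch genes and of the floxed genes in each of 17 fits (other normalizations, tests and filters, the replicate number as a block, lane tag 2 alone, and libraries left out); the diamond is the reported edgeR fit, and red marks an adjusted p under 0.05. None of the 8 switch genes was red in any fit, *Smarcc2* was red in all, and *Smarcc1* in some.

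Across 17 fits with other normalizations, tests, filters and sets of libraries, which called from 18 to 1794 genes, no switch gene reached an adjusted p under 0.05. The closest was *Dpf2* without the 2 libraries of highest mitochondrial share, at a log2 fold change of 0.19 and an edgeR adjusted p of 0.0738, in a fit that called 11% of all genes. *Ss18*, *Dpf2* and *Ss18l1* stayed above 0 and *Dpf3* and *Phf10* below 0 in every fit, with ranges of 0.16 to 0.22 for *Ss18*, 0.11 to 0.19 for *Dpf2*, 0.05 to 0.13 for *Ss18l1*, -0.45 to -0.30 for *Dpf3* and -0.09 to -0.01 for *Phf10*. Reads of overlapping genes limit a few values: 11.6% of the exon bases of *Actl6a* overlap *Mrpl47* and 9.56% of those of *Phf10* overlap *1600012H06Rik*, both on the opposite strand, and the library kit keeps no strand. Other genes named above share this limit, such as *C130071C03Rik*, with 23.4% of its exon bases over opposite-strand *Gm33366*. *Smarcd1* shares 7.13% with *Gm17349* and 5.56% with *Gm34939*, also on the opposite strand. *Mrpl47* was at 26.1 CPM in the control and 24.6 CPM in the dcKO_Nex-Cre cortex, and *1600012H06Rik* at 34.0 and 33.5 CPM, with edgeR adjusted p of 0.692 and 0.916.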

How the data were processed

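RNA was isolated with TRIZOL and libraries were made with the Illumina TruSeq RNA v2 kit. For each of the 8 samples the authors deposited raw read counts per Ensembl gene, not normalized. The submitters' notes name the build mm10, and the aligner, counter, annotation and strand setting are not given in the sources used here. The study's text gives the Cre driver as Nex-Cre. Of 48709 genes listed, 48349 matched GENCODE M21 (GRCm38) by identifier.

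The counts were compared in R 4.3.3 with edgeR 4.0.16 (filterByExpr, TMM, robust quasi-likelihood F test, two-sided, no covariate). P-values were adjusted by Benjamini-Hochberg over the 16287 genes tested, with a threshold of 0.05. CPM use the TMM-scaled library size, and levels per kilobase divide by all annotated exons of a gene. For single genes, CPM also went into an exact permutation test, two-sided, over 70 regroupings. The biological coefficient of variation was 0.143. No 2 libraries of a group were copies (chi-square per degree of freedom at least 3.77). The fit was tested on simulated data.

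Alternatives were DESeq2 1.42.0 size factors and Wald test, limma-voom (limma 3.58.1), the replicate number as a block, lane tag 2 only, leaving out each library, no filter, and a minimum of 10 counts in all samples. For levels and ratios, the longest annotated transcript was also used as length. Added after seeing the data were a fit without the 2 libraries of highest mitochondrial share and the longest protein coding transcript as length.

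The 8 genes and all lists were chosen with earlier results of these data known. Named were the 8 genes, *Smarcc1* and *Smarcc2*, from the lists of other BAF subunits and regulators every gene past the threshold or else the 3 with the smallest unadjusted p, from each marker list the gene with the smallest p and any past the threshold, and the 3 genes closest in profile to *Actl6a* and *Actl6b*. The miRNA sequence is from RefSeq, and the UTR sequence from GENCODE M21 transcripts.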

Additional observations from a re-analysis of the deposited data

Results flagged for a closer look

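Among 100 groups of 4 values (the levels of the switch genes, other BAF subunits and regulators, the neuronal to progenitor ratios, total counts and mitochondrial share, in each group), 3 held a library far from the other 3, where chance gives about 1 in 20. No switch gene or ratio was among them. *Mir124a-1hg*, a host transcript of miR-124, stood at 166.6 CPM in replicate 4 of the dcKO_Nex-Cre cortex, where the other replicates had 50.4 to 64.3 CPM. *Smarcd2*, the BAF60b subunit, had 19.4 CPM in the same replicate, against 17.5 to 17.6 CPM in its group. *Rcor2* had 56.8 CPM in dcKO_Nex-Cre replicate 2, against 42.8 to 44.4 CPM in its group.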

How the results depend on the processing

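No switch gene passed the threshold in any of the 16 alternatives. Signs turned only near 0: *Actl6a*, *Actl6b* and *Dpf1* reversed in fits that left out a library, where they ranged from -0.136 to 0.0446, from -9.92e-05 to 0.0536 and from -0.0459 to 0.0711 (log2). Without dcKO_Nex-Cre replicate 1, the 3 values were 0.0446, -9.92e-05 and -0.0153. *Actl6a* was also at 0.0233 without control replicate 2 and at 0.0317 without dcKO_Nex-Cre replicate 3, and *Dpf1* at -0.0459 without control replicate 4. The differences of the 4 ratios moved by less than the SD pooled over both groups in each alternative, but that of *Actl6b* to *Actl6a* ranged from -0.0353 to 0.186, a move larger than the control SD.

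Counts of called genes over the whole table moved more, from 144 to 494 with the DESeq2 Wald test, 259 with no filter, 248 within lane tag 2, 18 to 1278 when a library was left out (1278 without dcKO_Nex-Cre replicate 4) and 1794 without the 2 libraries of highest mitochondrial share. Of other BAF subunits and regulators, 2 were called, against 1 to 11 when a library was left out and 13 without the 2 libraries of highest mitochondrial share. *Smarcc1* was not past the threshold within lane tag 2, at -0.46 (edgeR adjusted p = 0.0752), and ranged from -0.625 to -0.474 when a library was left out. The cause of these moves was not tested.

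The replicate numbers did not pair the samples: deviations of same-numbered libraries correlated at 0.126, 0.018, 0.135 and -0.138, and no control correlated best with its own number. With the number as a block, 54 genes were called, 1 of them among the other BAF subunits and regulators, and *Smarcc1* was at -0.54 (edgeR adjusted p = 0.0578).

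With 4 libraries a group, the 95% interval of *Actl6a* reached from -0.30 to 0.24 and that of *Dpf3* from -0.65 to -0.06 (log2), which sets the precision of these calls.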
